A study of Homo sapiens with 12 samples.

Results

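The 36 genes described here belong to enzyme families known for removing methyl or acetyl groups from histones, though not every member acts mainly on histones. They were chosen by name and matched to the 60662 genes of the count files by symbol, and all 36 were found there. Of these, 19 are histone demethylases: KDM1A, KDM1B, KDM2A, KDM2B, KDM7A, PHF2, PHF8, KDM3A, KDM3B, JMJD1C, KDM4A, KDM4B, KDM4C, KDM5A, KDM5B, KDM5C, KDM6A, KDM6B and KDM8. The other 17 are deacetylases: HDAC1 to HDAC11 and the sirtuins SIRT1, SIRT2, SIRT3, SIRT5, SIRT6 and SIRT7. The study asked how RNA levels and translation respond when METTL3, the enzyme that writes N6-methyladenosine (m6A) on mRNA, is inhibited by the small molecule STM2457. Wild-type HEK293T cells, an established human embryonic kidney line that carries a viral large T antigen, received 20 µM STM2457 in 0.2% DMSO or 0.2% DMSO alone for 6 h. Cells of both arms also got 10% extra serum for the last 1 h and cycloheximide, which freezes ribosomes on mRNA, at 100 µg/ml for 3 min before lysis. Polyadenylated RNA was sequenced in 4 libraries per arm, and ribosome-protected fragments of 26 to 34 nt (footprints) in 2 libraries per arm.

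Histone methylation is removed by flavin-dependent amine oxidases (KDM1A and KDM1B) or by JmjC enzymes, which use iron and 2-oxoglutarate. Histone deacetylases of classes I, II and IV use zinc, while sirtuins use NAD+. Many of these enzymes act inside corepressor complexes such as CoREST, NuRD, SIN3, NCoR and MiDAC, where deacetylases and demethylases meet scaffold and reader proteins.

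RNA libraries held 43112223 to 51425432 counts in genes, and footprint libraries 3198063 to 4711513 recovered reads. The 8 HEK293T markers checked were all detected at 1 CPM (counts scaled to library size) or more, while PTPRC, CD3E and HBB, which mark blood cells, were at or near 0, as were KRT7 and KRT19. Summed epithelial carcinoma markers ran from 67.5 to 69.0 CPM in the DMSO libraries and from 54.3 to 55.0 CPM in the STM2457 libraries. Summed HEK293T markers ran from 1097 to 1153 and from 1201 to 1234 CPM. The part of these shifts in the results below was not tested. METTL3 RNA was 75.8 ± 5.97 CPM with DMSO and 83.0 ± 6.85 CPM with STM2457 (SD, n = 4 each), a log2 fold change of 0.14 with an adjusted p of 0.104 in edgeR's quasi-likelihood test. The compound blocks the enzyme, so this RNA does not check the treatment. The added ERCC spike-in RNA took 0.389% to 0.408% of counts in the DMSO libraries and 0.415% to 0.466% in the STM2457 libraries. RNA fold changes are relative to the bulk of genes (edgeR's TMM scaling), and scaling to the spike-in moved the median gene by -0.20 on the log2 scale.

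After 6 h, RNA of 7 members rose and RNA of 10 fell (adjusted p under 0.05). That is 47.2% of the 36, beside 47.8% of all 17807 genes tested. KDM5B, SIRT1, KDM5A, KDM2B, KDM4A, KDM7A and KDM2A rose, in order of size, although KDM7A and KDM2A lay at -0.01 and -0.06 on the log2 scale with spike-in scaling. KDM8, SIRT5, HDAC5, SIRT3, SIRT2, KDM1B, HDAC4, KDM4B, HDAC3 and KDM1A fell. The changes were mostly small: 4 members (KDM5B, SIRT1, SIRT5 and KDM8) passed the test with a log2 change of 0.5 or more in either direction, a size that 15.2% of all genes reached. With spike-in scaling 4 members were called higher and 23 lower, together 75.0% of the list. Of all genes 59.2% were called that way, 12.1% higher and 47.1% lower.

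The sequences just upstream of the start of those 4 genes are shown because they changed most among the members that passed the test. Each line gives the 250 bases before the annotated start from RefSeq (GRCh38.p14), read 5′ to 3′ on the gene's strand. SIRT5 has 2 annotated starts, and the first listed is shown. Capitals mark matches on either strand to a GC box (GGGCGG), the E-box CACGTG or the NRF1 palindrome, the long match in the SIRT5 line.
KDM5B, chr1:202808422-202808671, minus strand: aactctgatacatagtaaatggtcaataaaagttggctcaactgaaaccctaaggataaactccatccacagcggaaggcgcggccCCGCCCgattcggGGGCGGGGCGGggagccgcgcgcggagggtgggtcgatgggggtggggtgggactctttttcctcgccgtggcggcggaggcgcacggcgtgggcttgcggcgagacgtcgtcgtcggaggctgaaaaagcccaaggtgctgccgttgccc
SIRT1, chr10:67884406-67884655, plus strand: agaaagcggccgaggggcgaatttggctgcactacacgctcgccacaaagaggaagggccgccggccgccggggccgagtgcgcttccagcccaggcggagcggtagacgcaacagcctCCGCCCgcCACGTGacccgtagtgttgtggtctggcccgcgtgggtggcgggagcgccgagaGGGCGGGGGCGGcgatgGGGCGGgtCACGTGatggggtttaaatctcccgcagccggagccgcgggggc
SIRT5, chr6:13574351-13574600, plus strand: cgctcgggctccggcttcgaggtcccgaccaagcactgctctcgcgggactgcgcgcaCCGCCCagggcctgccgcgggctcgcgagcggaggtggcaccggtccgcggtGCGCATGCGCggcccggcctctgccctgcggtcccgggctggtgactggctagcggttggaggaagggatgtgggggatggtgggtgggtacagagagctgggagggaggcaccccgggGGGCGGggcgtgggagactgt
KDM8, chr16:27203276-27203525, plus strand: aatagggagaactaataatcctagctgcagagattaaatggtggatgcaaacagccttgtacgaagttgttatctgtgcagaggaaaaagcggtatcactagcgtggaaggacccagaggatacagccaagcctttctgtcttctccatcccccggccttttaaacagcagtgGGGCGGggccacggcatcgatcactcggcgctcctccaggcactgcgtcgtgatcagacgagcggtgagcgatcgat
The KDM5B, SIRT1 and SIRT5 windows were rich in G and C (64.0%, 72.0% and 74.8%), and the KDM8 window less so (53.2%). KDM5B carried 3 GC boxes, 2 of them overlapping by 1 base, and SIRT1 carried 4. SIRT1 also had 2 E-boxes, and SIRT5 had 2 GC boxes and 1 NRF1 palindrome. KDM8, which fell, had 1 GC box, so both members that rose and members that fell held the motif. Among the 34 members with an entry, 58.8% held GGGCGG, against 42.3% of the 27305 promoters in the table. The shares were 11.8% against 6.49% for CACGTG, 17.6% against 8.82% for the ETS-type motif CCGGAAG, and 5.88% against 1.13% for the NRF1 palindrome, which was found in SIRT5 and SIRT6. For CCAAT the shares were 35.3% and 33.0%, and the CRE motif TGACGTCA was in no member's window and in 1.77% of all. The members' median GC content was 65.0% against 58.0% over the table, and these matches are descriptions of the letters, not of binding. HDAC5 and SIRT7 had no entry.

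With the main scaling more demethylases rose than fell, at shares near those of all genes, and more deacetylases fell than rose. Of the 19 demethylases 6 rose and 4 fell (31.6% and 21.1%), with a median log2 change of 0.06. Of the 17 deacetylases 1 (SIRT1) rose and 6 fell (5.88% and 35.3%), with a median of -0.06. Over all genes 26.2% rose and 21.6% fell, with a median of 0.00. With spike-in scaling the medians were -0.13 and -0.26, beside -0.19 for all genes, with 3 demethylases higher and 10 lower, and 1 deacetylase higher and 13 lower.

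Library by library, the median demethylase lay above the median deacetylase in every STM2457 library. Expressed relative to each gene's DMSO mean, the difference between the 2 medians was 0.17, 0.14, 0.09 and 0.15 on the log2 scale in STM2457 replicates 1 to 4. In the DMSO libraries it was 0.01, 0.01, -0.03 and -0.00. The arms do not overlap in this difference, but the DMSO values are centred by that choice of reference. The separation is therefore not evidence beyond the family medians above. The lists were chosen with results known, so no test is given.

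**Figure D1:**
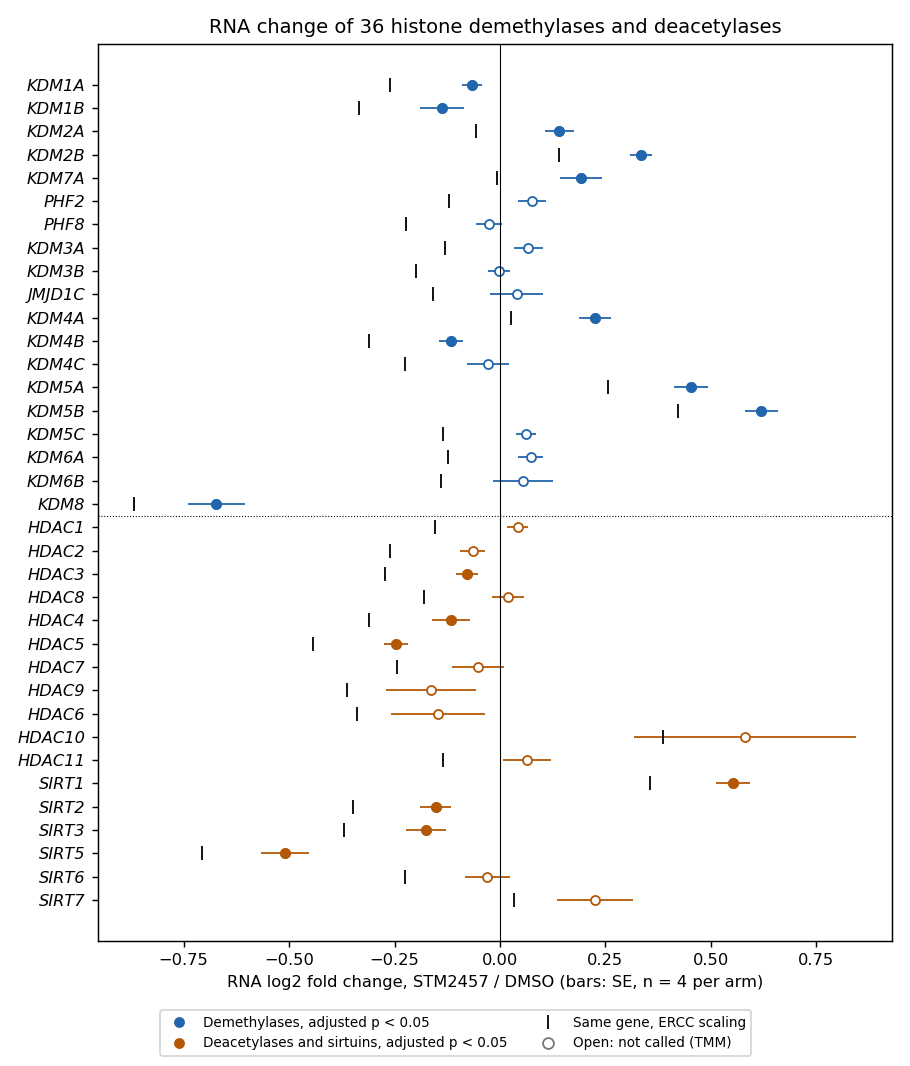
RNA log2 fold change (x axis, STM2457 over DMSO, n = 4 per arm) of the 36 members, grouped by enzyme family, with bars for the standard error. Filled points passed the test, open points did not, and black ticks give the same gene with spike-in scaling. KDM5B at 0.62 and KDM8 at -0.67 mark the ends among genes that passed, and the ticks lie about 0.20 to the left.

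The KDM5 enzymes, which remove methyl groups from lysine 4 of histone H3, gave the largest increases among the demethylases. KDM5B (ENSG00000117139.17, chromosome 1) was at 77.8, 74.1, 70.5 and 75.4 CPM in DMSO replicates 1 to 4. With STM2457 it was at 119, 117, 108 and 111 CPM. Every treated library lay above every control library, and the log2 change was 0.62 ± 0.04 (SE, edgeR adjusted p = 4.68e-08), a 1.54-fold increase that was 0.42 with spike-in scaling.

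KDM5A (ENSG00000073614.12, chromosome 12), the paralog first found as a partner of the retinoblastoma protein, was at 75.8, 77.8, 70.9 and 71.8 CPM with DMSO. It was at 104, 106, 93.1 and 100 CPM with STM2457. The arms did not overlap, and the log2 change was 0.45 ± 0.04 (SE, edgeR adjusted p = 1.39e-06; 0.26 with spike-in scaling). KDM5C, the X-linked paralog, did not pass: its log2 change was 0.06 ± 0.02 (SE, edgeR adjusted p = 0.054).

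The 5 members of the KDM2/KDM7 group carry a JmjC domain together with zinc fingers that read histones or DNA. Of these KDM2B, KDM7A and KDM2A rose, and PHF2 and PHF8 did not pass. KDM2B, which brings a Polycomb complex to unmethylated CpG islands, went from 72.8, 75.9, 71.7 and 70.8 CPM to 93.2, 89.7, 91.8 and 90.3 CPM. Its arms did not overlap, its log2 change was 0.33 (edgeR adjusted p = 4.96e-07), and it was still called with spike-in scaling (0.14, adjusted p = 0.0272). KDM2A changed by 0.14 (adjusted p = 0.00381) and KDM7A by 0.19 (adjusted p = 0.00628), and these are the 2 increases that turned with spike-in scaling.

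The KDM4 enzymes, which act on lysines 9 and 36 of histone H3, moved apart. KDM4A gave 44.2, 46.8, 43.9 and 43.0 CPM in the DMSO libraries and 53.1, 51.0, 48.8 and 53.7 CPM after STM2457. KDM4B gave 58.1, 56.6, 56.0 and 57.8 CPM in the DMSO libraries and 51.3, 52.0, 53.2 and 53.4 CPM after STM2457. In both genes the arms were separate, in opposite directions: KDM4A rose by 0.22 ± 0.04 on the log2 scale (SE, edgeR adjusted p = 0.000276) and KDM4B fell by 0.12 ± 0.03 (SE, adjusted p = 0.00495). With spike-in scaling KDM4A was at 0.03 (adjusted p = 0.685) and KDM4B at -0.31. KDM4C, at 15.4 CPM in controls and 15.0 CPM in treated cells, did not pass (log2 change -0.03).

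Both flavin-dependent enzymes fell slightly: KDM1A, the core enzyme of CoREST, by 0.07 (edgeR adjusted p = 0.0362) and KDM1B by 0.14 (adjusted p = 0.0436). In both genes the arms overlapped, and each call was lost in several of the alternatives listed at the end. None of the KDM3 enzymes (lysine 9 of histone H3) or KDM6 enzymes (lysine 27 of histone H3) passed the RNA test, with log2 changes between -0.00 and 0.07.

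KDM8, another JmjC protein, had the largest decrease of all members. KDM8 (ENSG00000155666.11, chromosome 16) was at 7.76, 8.63, 8.14 and 8.39 CPM with DMSO. It was at 5.41, 5.06, 5.39 and 4.67 CPM with STM2457. All treated libraries lay below all controls, and the log2 change was -0.67 ± 0.07 (SE, edgeR adjusted p = 3.39e-06; -0.87 with spike-in scaling).

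**Figure D2:**
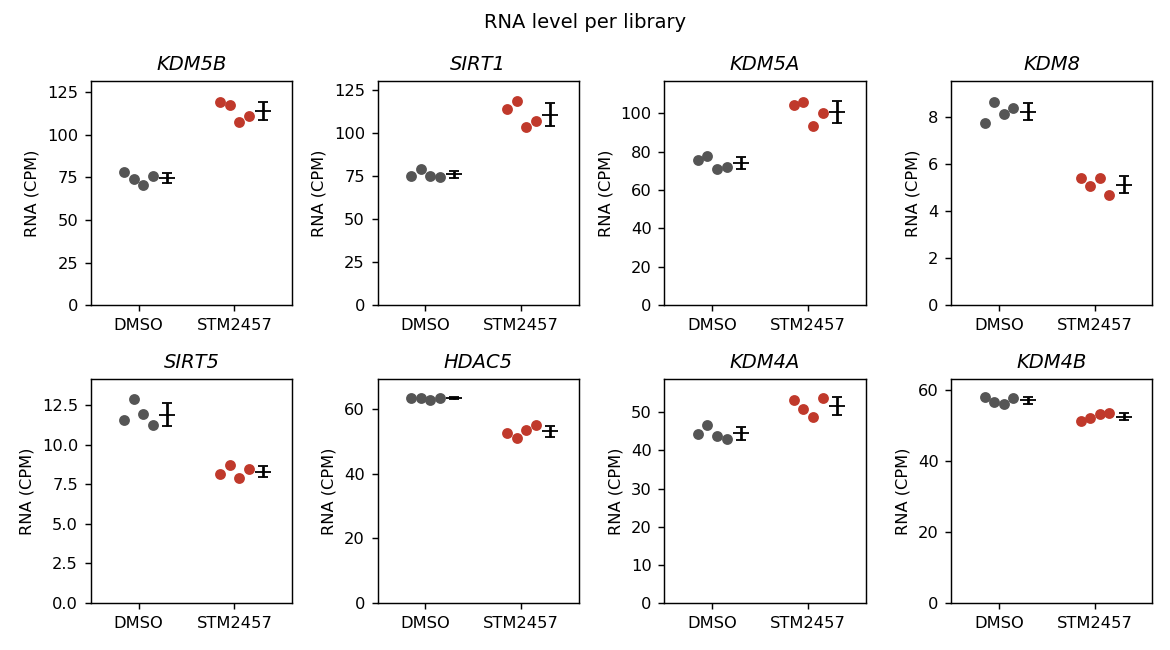
RNA level in CPM (y axis from 0) in each of the 4 DMSO (grey) and 4 STM2457 (red) libraries for 8 members, with the mean and SD beside the points. In all 8 genes the arms are separate, with KDM5B, SIRT1, KDM5A and KDM4A higher and KDM8, SIRT5, HDAC5 and KDM4B lower after STM2457.

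Among the 11 zinc-dependent deacetylases none rose and 3 fell (27.3%, beside 21.6% of all genes), and with spike-in scaling 9 fell, where 47.1% of all genes did. HDAC5, a class IIa enzyme that shuttles between nucleus and cytoplasm, gave 63.4, 63.6, 62.9 and 63.4 CPM in the DMSO libraries and 52.7, 51.2, 53.4 and 55.0 CPM after STM2457. The 4 control values lay within 1 CPM of each other and above every treated value, and the log2 change was -0.25 ± 0.03 (SE, edgeR adjusted p = 1.55e-05). HDAC4, of the same class, changed by -0.12 (adjusted p = 0.0481) and HDAC3, the enzyme of the NCoR complex, by -0.08 (adjusted p = 0.0236). The HDAC4 call was kept in 4 of 16 alternatives, and the RNA signal of the series table put it higher (0.12, limma adjusted p = 0.0339). HDAC3 was not called within replicates 1 and 2 (edgeR adjusted p = 0.105) or within replicates 3 and 4 (adjusted p = 0.0715).

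HDAC1 and HDAC2, the paired catalytic subunits of NuRD, SIN3 and CoREST, did not pass. HDAC1 was at 358 CPM in controls and 367 CPM in treated cells (log2 change 0.04 ± 0.03 SE), and HDAC2 at 262 and 249 CPM (-0.06 ± 0.03 SE). HDAC7, HDAC8, HDAC9, HDAC6 and HDAC11 also did not pass.

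HDAC10, a polyamine deacetylase, gave 1.00, 1.06, 1.79 and 1.76 CPM with DMSO and 1.33, 1.61, 2.96 and 2.51 CPM with STM2457. In each arm replicates 3 and 4 were higher than replicates 1 and 2, and the arms overlapped. Its log2 change was 0.58 ± 0.26 (SE, edgeR adjusted p = 0.089), and within replicates 1 and 2 and within replicates 3 and 4 it was 0.53 (adjusted p = 0.0368) and 0.61 (adjusted p = 0.00724). HDAC10 had unusually few gene counts for its signal in the series table, as described in the closing observations, so its CPM is uncertain.

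The sirtuins split: SIRT1 rose and SIRT2, SIRT3 and SIRT5 fell. SIRT1 (ENSG00000096717.12, chromosome 10), a nuclear deacetylase of histones and of transcription factors such as p53, was at 75.0, 78.9, 75.2 and 74.7 CPM with DMSO. With STM2457 it was at 114, 118, 104 and 107 CPM. The arms were far apart, and the log2 change was 0.55 ± 0.04 (SE, edgeR adjusted p = 1.81e-07), a 1.47-fold increase that was 0.36 with spike-in scaling.

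SIRT5 (ENSG00000124523.15, chromosome 6), a mitochondrial enzyme that removes succinyl and malonyl groups, was at 11.5, 12.9, 11.9 and 11.2 CPM with DMSO. It was at 8.15, 8.68, 7.88 and 8.47 CPM with STM2457. The arms did not overlap, and the log2 change was -0.51 ± 0.06 (SE, edgeR adjusted p = 1.07e-05; -0.71 with spike-in scaling). SIRT3, the main mitochondrial deacetylase, changed by -0.18 (adjusted p = 0.00828), and SIRT2, largely cytoplasmic, by -0.15 (adjusted p = 0.00415). SIRT6 (-0.03) and SIRT7 (0.23, adjusted p = 0.0563), both nuclear, did not pass. SIRT7 was called higher within replicates 1 and 2 (0.20, adjusted p = 0.00273) and within replicates 3 and 4 (0.24, adjusted p = 0.00858).

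Libraries of both arms fell into replicates 1 and 2 and replicates 3 and 4 along the second principal component. No label says what separates them. Within these sets 32 of the 36 members kept the same sign, as did all 17 called members, and 9 of the 17 were called in both sets. The matching shares over all genes were not computed, so these counts have no background. Each set taken by itself, 44.3% of all genes were called within replicates 1 and 2, and 36.1% within replicates 3 and 4. The arms did not overlap in CPM for 15 of 36 members (41.7%), beside 44.2% of all genes tested. The calls of KDM2B, KDM5A, KDM5B, SIRT1, KDM8, SIRT5, HDAC5 and SIRT2 were kept in all 16 alternatives run for the RNA test. These alternatives reuse the same libraries, and the matching share over all genes was not computed.

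Footprints show which mRNAs ribosomes were on. For 34 members they could be tested, at a mean of 10 or more recovered reads per library. HDAC8 (5, 2, 4 and 3 reads) and HDAC9 (3, 4, 1 and 5 reads) fell below that. Footprints of KDM5B and SIRT1 rose and those of KDM3B fell, which is 8.82% of 34 members beside 15.7% of the 10906 genes tested (9.59% higher, 6.13% lower). The median log2 change was -0.01 for the members and -0.02 for all genes. A count test on the recovered reads called the same 3 members (10.2% of all genes higher, 5.57% lower in edgeR). These limma calls use a mean-variance trend. Without it limma called none of the members (1.54% of all genes higher, 0.587% lower), with adjusted p of 0.0802 for KDM3B, 0.11 for KDM5B and 0.132 for SIRT1. At an unadjusted p under 0.05 in that fit, 3 of the 34 members were higher and 2 lower, while 21.4% of all genes reached that.

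KDM5B footprint signal, in the authors' normalized units, was 2369 and 2236 with DMSO and 3456 and 3194 with STM2457. SIRT1 signal was 1551 and 1918 with DMSO and 2647 and 2534 with STM2457. Both treated libraries lay above both controls in each gene, as in the RNA. On the log2(signal + 1) scale KDM5B changed by 0.53 ± 0.10 (SE, limma adjusted p = 8.62e-05) and SIRT1 by 0.59 ± 0.11 (SE, adjusted p = 7.4e-05), close to their RNA changes of 0.62 and 0.55.

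KDM3B, a lysine 9 demethylase and cofactor of nuclear receptors, was the 1 member called in footprints but not in the main RNA test. KDM3B RNA (ENSG00000120733.14, chromosome 5) gave 129, 131, 125 and 128 CPM in the DMSO libraries and 131, 123, 127 and 129 CPM after STM2457. Its footprint signal was 2794 and 2901 with DMSO and 1914 and 1734 with STM2457, from 868, 602, 504 and 444 reads in that order. In CPM the RNA arms overlapped throughout (log2 change -0.00 ± 0.03 SE, edgeR adjusted p = 0.95). With spike-in scaling KDM3B RNA was called lower (-0.20, edgeR adjusted p = 0.00155). Its RNA signal in the authors' table, which the efficiency fit uses, was also lower (-0.08, limma adjusted p = 0.0441), with separate arms. Both treated footprint libraries lay well below both controls. The footprint change was -0.64 ± 0.11 (SE, limma adjusted p = 5.86e-06). A count test on the recovered reads gave -0.62 (edgeR adjusted p = 2.95e-06).

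**Figure D3:**
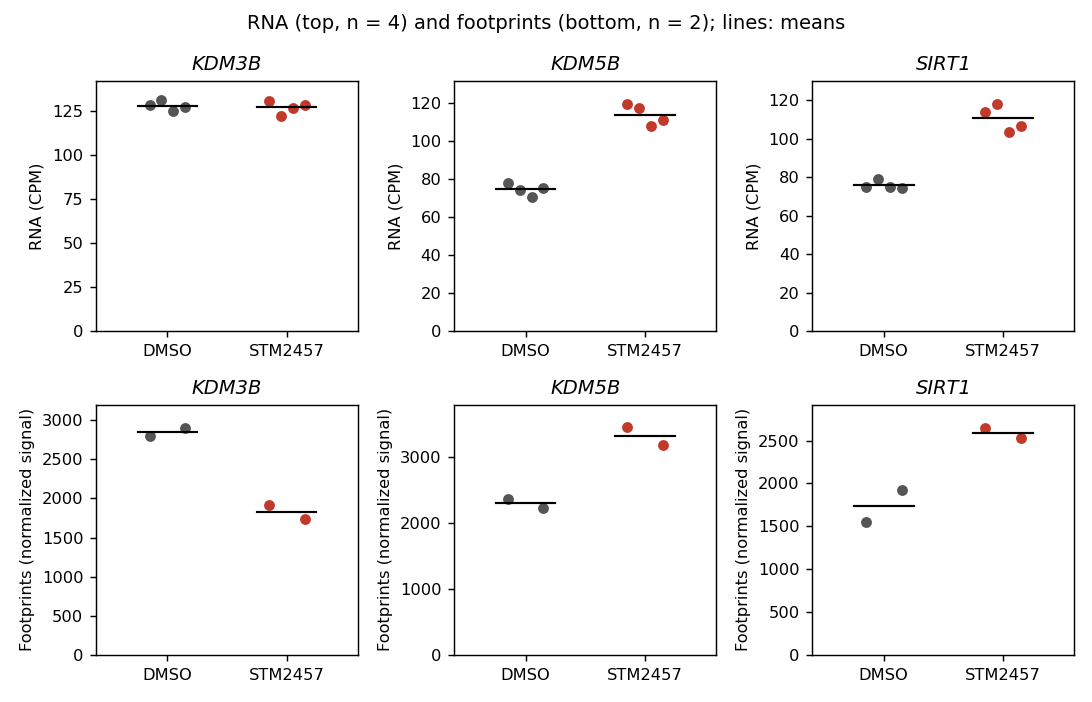
RNA in CPM (top row, 4 libraries per arm) and normalized footprint signal (bottom row, 2 libraries per arm) for the 3 members whose footprints passed the test, with lines at the means and y axes from 0. KDM3B is level in RNA and lower in footprints after STM2457, while KDM5B and SIRT1 are higher in both.

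The paralogs of KDM3B did not pass: KDM3A and JMJD1C footprints changed by 0.09 ± 0.13 and 0.17 ± 0.16 (SE). The RNA increase of KDM5A (0.45) stood beside a footprint change of 0.12 ± 0.12 (SE, limma adjusted p = 0.569), and that of KDM2B (0.33) beside 0.08 ± 0.15 (SE). KDM8 footprints were 122 and 169 with DMSO and 114 and 62.5 with STM2457, from only 16 to 38 reads, and changed by -0.76 ± 0.35 (SE, adjusted p = 0.149). SIRT5 footprints, at 19 to 43 reads, changed by -0.01 ± 0.36 (SE), so at this depth a change as large as that of its RNA (-0.51) could not be told from none. HDAC5 footprints changed by 0.26 ± 0.25 (SE, adjusted p = 0.563) while its RNA fell.

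Across the 34 members the footprint change followed the RNA change with Pearson's r = 0.582 (Spearman's rho = 0.369), beside 0.698 (0.636) over 10864 genes. For the 19 demethylases r was 0.711 and for the 15 deacetylases 0.488 (rho 0.484 and 0.0964). These are correlations across genes, which are not independent replicates and share libraries.

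**Figure D4:**
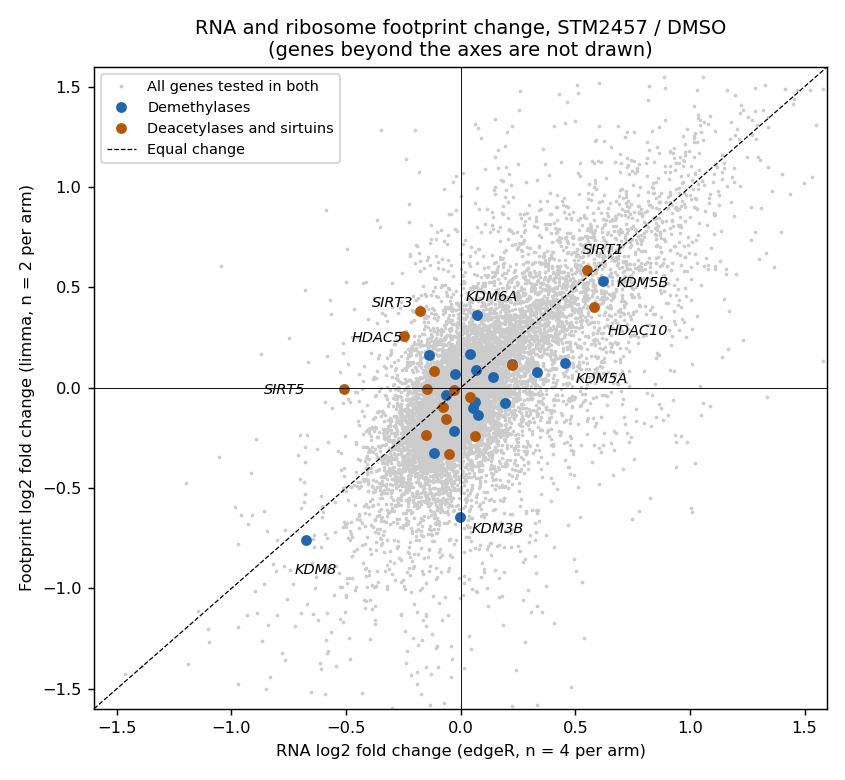
RNA log2 fold change (x axis, n = 4 per arm) against footprint log2 fold change (y axis, n = 2 per arm) for all genes tested in both (grey), the demethylases (blue) and the deacetylases (orange), with the line of equal change dashed. KDM5B and SIRT1 lie near that line, KDM3B sits below it at no RNA change, and SIRT5 sits above it.

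Translation efficiency, the footprint change beyond the RNA change, was tested in a single limma fit with a term for treatment within assay, over the table's 8 RNA and 4 footprint columns. No member of 34 passed, higher or lower, beside 0.642% of all genes (0.138% higher, 0.504% lower). At an unadjusted p under 0.05 there were 3 higher (KDM6A, HDAC5 and SIRT3) and 1 lower (KDM3B), while 9.88% of all genes reached that. KDM3B came closest, at -0.56 ± 0.11 on the log2 scale (SE, limma adjusted p = 0.0531).

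KDM3B was called lower in 3 of 12 alternative fits. A count model took gene counts for RNA and recovered reads for footprints, with 1 spread per gene across both assays. For KDM3B it gave -0.63 (edgeR adjusted p = 0.000118), where 3.92% of all genes were called lower. In limma with 1 spread shared by both assays the KDM3B adjusted p was 0.00142 (limma). KDM6A was called higher there at 0.36 (adjusted p = 0.0211), where 4.12% of all genes were lower and 3% higher. In earlier work on these data a shared spread made too many calls on simulated data, so it is not the main fit. With a mean-variance trend, a fit added after results were seen, the KDM3B adjusted p was 0.0121 (limma), where 0.807% of all genes were lower. With 1 footprint library left out, the KDM3B change lay between -0.49 and -0.64.

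HDAC5 had the largest positive efficiency change, 0.59 ± 0.17 (SE, limma adjusted p = 0.182), from 35 to 77 reads per library. It was 0.87 without DMSO replicate 1 of the footprints and 0.32 without DMSO replicate 2. SIRT3 (0.51) and SIRT5 (0.50), both mitochondrial, also did not pass, nor did KDM6A (0.36), the X-linked lysine 27 demethylase, or KDM5A (-0.33). KDM5B and SIRT1 were at 0.01 and 0.11. The median efficiency change was -0.07 for demethylases and 0.00 for deacetylases, beside 0.01 for all genes.

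The authors' deposited table also gives an efficiency per gene and arm, as a ratio of footprints to RNA. In that table KDM5B had the highest DMSO value among members, 1.71 (the 86.1th percentile of its genes), followed by HDAC1 and KDM7A at 1.66, SIRT1 at 1.59 and PHF8 at 1.57. HDAC5 (0.142), HDAC8 (0.210) and HDAC10 (0.300) had the lowest, at the 1.65th, 3.15th and 6.19th percentiles. In the authors' deposited table the median DMSO value was 1.13 for demethylases, 0.775 for deacetylases and 1.01 for all genes. KDM3B went from 1.18 to 0.797 there, SIRT5 from 0.917 to 1.38, SIRT3 from 0.712 to 1.02 and HDAC5 from 0.142 to 0.214.

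**Figure D5:**
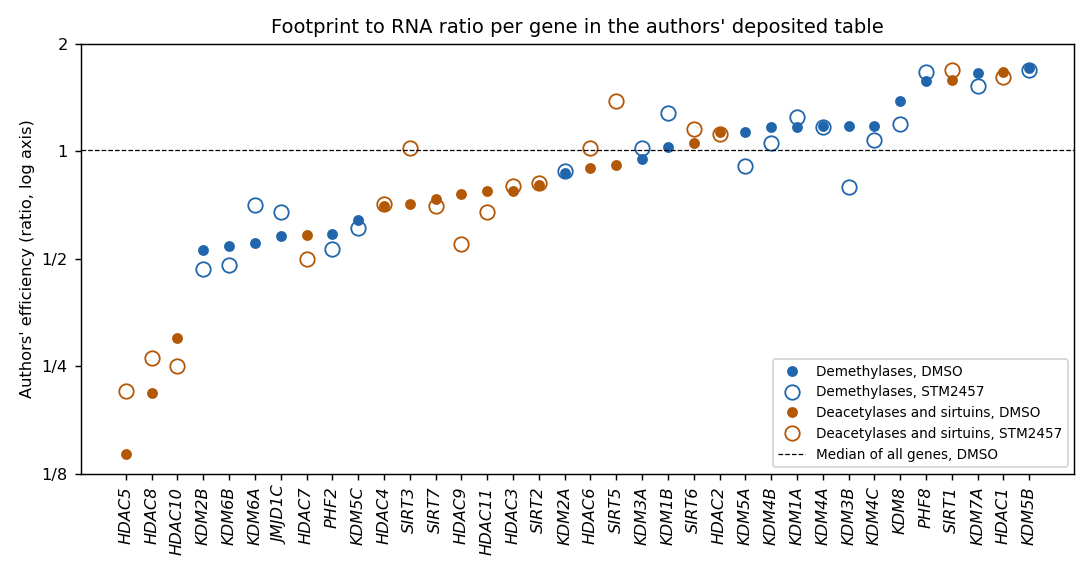
Ratio of footprints to RNA in the authors' deposited table (y axis, log scale) for the 36 members in order of their DMSO value, with filled points for DMSO and open points for STM2457. HDAC5, HDAC8 and HDAC10 stand lowest, KDM5B highest, and KDM3B drops from 1.18 to 0.797.

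For 3 members the ratio of the authors' table RNA signal to gene counts changed with treatment relative to the median gene. Each library's median log2 ratio over genes was subtracted first. Relative to gene counts, a comparison chosen after seeing the data, the table's RNA signal of HDAC4 rose by 0.30 ± 0.02 on the log2 scale (SE, limma adjusted p = 0.000253), with its gene RNA at -0.12 and its table RNA at 0.12. SIRT3 (0.11 ± 0.02 SE, adjusted p = 0.0146) and KDM5A (0.06 ± 0.01 SE, adjusted p = 0.0303) also passed, as did 7.85% of the 11840 genes tested, and HDAC9 did not (0.30 ± 0.08 SE, adjusted p = 0.0812). Without that subtraction KDM5A was at 0.45 in both, and SIRT3 was at -0.13 in the table's signal and -0.18 in gene counts. The gene region that the table counts is not given in the sources used here.

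Of 54 partner genes in the same complexes and families, 53 could be tested in RNA, and 19 rose and 15 fell (median log2 change 0.02). That is 35.8% and 28.3%, beside 26.2% and 21.6% of all genes, against which the counts of each complex can be read. Other JmjC genes rose most often, 7 of 11 with 2 falling: JARID2, an accessory subunit of Polycomb complex PRC2, changed by 0.60, KDM4D by 1.16, JMJD6 by 0.39 and JMJD8 by -0.34. In SIN3, 6 of 13 rose and 3 fell, with ING1 at 0.98, ING2 at 0.85, the scaffold SIN3A at 0.46 and SAP30 at -0.42. In CoREST, which holds KDM1A, 1 of 9 rose and 4 fell, with RCOR1 at -0.17, ZMYM3 at -0.18, GSE1 at -0.13 and PHF21A at 0.13. In NuRD 3 of 12 rose and 3 fell: MTA3 changed by -0.41, MBD2 by -0.26, MTA2 by -0.15 and GATAD2A by 0.18. PHF21A and GATAD2A were at -0.07 and -0.02 with spike-in scaling, under which 9 partners were called higher and 28 lower (69.8% in all, beside 59.2% of all genes).

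In NCoR, the complex of HDAC3, TBL1X rose by 0.38 and NCOR1 fell by 0.37, while TBL1XR1 did not pass (-0.05). In MiDAC, MIDEAS rose by 0.51 and DNTTIP1 fell by 0.24, while TRERF1 did not pass (0.14). Footprints of 5 of 51 partners rose (JARID2, JMJD6, HSPBAP1, SIN3A and ING1) and those of 3 fell (MTA3, NCOR1 and GPS2), in all 15.7% of partners and the same share, 15.7%, of all genes.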

How the data were processed

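RNA-seq and Ribo-seq of HEK293T cells were analysed from deposited files, with 4 RNA and 2 footprint libraries per arm. Per the labels' protocols RNA libraries were strand-specific and polyA-selected. The submitters' processing notes name STAR 2.7.3a, UMI-tools 1.1.2, Subread 2.0.3 with featureCounts, SAMtools 1.10, bedtools 2.29.2, FastQC 0.11.9, DESeq2 and build GRCh38.p12, with no role for each. The authors deposited raw counts per gene for RNA, and a table of normalized signal per gene for RNA and footprints with its efficiency ratio and log2 fold change. Which gene region that table counts is not given in the sources used here, and its RNA signal is not proportional to the gene counts. Its columns named WT were taken as the DMSO arm.

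RNA counts were tested with edgeR 4.0.16 (quasi-likelihood, TMM, filter on low counts, R 4.3.3). CPM values use TMM scaling. Whole footprint reads were recovered from the deposited signal within 0.1 of a whole number (100% of values), and edgeR on these reads called 1112 genes higher and 607 lower. Footprints were tested with limma 3.58.1 on log2(signal + 1) for genes with a mean of 10 or more reads, and efficiency as an interaction with a weight per assay. A pseudocount of 1 understates changes of low genes. The planned footprint fit had no mean-variance trend. It called no member, and on simulated data it recovered none of the changes. The trend was added after these results had been seen, and the fit without it is given beside the calls. The efficiency fit is as planned, without a trend. P-values were adjusted by Benjamini-Hochberg over all genes tested, at 0.05. Nothing in the labels says that replicates came from separate cultures, so the p-values may measure technical spread only.

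Members and partner lists were chosen with earlier results of these data known. Values in every library are given for members that pass the RNA test with a log2 change of 0.5 or more in size, pass the footprint or efficiency test, or have a close paralog called in the opposite direction; KDM5A, KDM2B, HDAC5 and HDAC10 were added after their values were seen. From each partner list the 4 genes with the smallest RNA p are named, except 1 that is not reported here. GC boxes and other motifs were searched on both strands. Protein sequences were not analysed here. Alternatives were spike-in scaling, DESeq2 1.42.0, other filters and pseudocounts, replicate subsets and a replicate block. The edgeR RNA fit and the limma fits of footprints and efficiency were tested on simulated data. The edgeR fits on recovered reads, DESeq2 and the comparison of table signal with gene counts were not.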

Additional observations from a re-analysis of the deposited data

Results flagged for a closer look

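In 72 groups of 4 RNA libraries (36 members in 2 arms), 3 had a library far from the other 3 by Dixon's ratio of the gap to the range, where chance flags about 1 in 20 groups. PHF8 was lowest in DMSO replicate 3, at 88.6 CPM with the nearest library at 93.0 CPM (ratio 0.871). KDM3A was lowest in DMSO replicate 1, at 54.2 CPM with the nearest at 57.1 CPM (ratio 0.844). SIRT1 was highest in DMSO replicate 2, at 78.9 CPM with the nearest at 75.2 CPM (ratio 0.869), which is still below every STM2457 library.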

How the results depend on the processing

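The RNA counts of 7 members higher and 10 lower became 4 and 23 with spike-in scaling, and 4 and 21 when the library with the highest spike-in share, STM2457 replicate 4, was also left out. They were 11 and 12 with the replicate block, 10 and 6 with replicates 1 and 2 only, 7 and 5 with replicates 3 and 4 only, and 8 and 10 with DESeq2. Leaving out 1 library gave 7 to 9 higher and 6 to 9 lower, the 6 being without DMSO replicate 4 or STM2457 replicate 4. Same-numbered RNA libraries deviated together with correlations of 0.152, 0.227, 0.148 and 0.0765, and DMSO replicate 4 correlated best with STM2457 replicate 3 (0.275), so the numbers are not taken as pairs. The 2 higher and 1 lower footprint calls became 0 and 0 without the mean-variance trend and stayed 2 and 1 when any library was left out. Efficiency calls of 0 higher and 0 lower became 1 and 1 with 1 spread shared by both assays, 0 and 1 in edgeR, 0 and 1 with a mean-variance trend, and stayed 0 and 0 with the replicate block (KDM3B adjusted p = 0.137 in limma) or with any footprint library left out. Over all genes, RNA calls were 4669 higher and 3842 lower (2159 and 8383 with spike-in scaling). Footprint calls were 1046 and 669 (168 and 64 without the trend, and as few as 262 lower with a library left out). Efficiency calls were 15 and 55 (327 and 449 with a shared spread, 94 and 428 in edgeR, 25 and 88 with a trend, 8 and 25 with the block, 0 and 2 with RNA replicates 1 and 2 only, and 6 to 16 and 24 to 66 with a library left out). Among members called with either scaling, the spike-in turned the sign of KDM2A (-0.057), KDM7A (-0.0065), KDM3A (-0.13), JMJD1C (-0.16), KDM5C (-0.13), HDAC1 (-0.15) and HDAC8 (-0.18). The sign also turned for PHF2 (-0.12), KDM6A (-0.12), KDM6B (-0.14) and HDAC11 (-0.13), which neither scaling called. Without STM2457 replicate 4 as well, among members called in that fit or the main fit, the sign turned for KDM2A (-0.039), KDM3A (-0.11), KDM5C (-0.10), HDAC1 (-0.11) and HDAC8 (-0.18). HDAC4 was at 0.12 in the RNA signal of the table. HDAC4 was called lower in 4 of 16 alternatives, KDM1A in 7, and HDAC3 and KDM1B in 10. The cause of these changes was not tested. Depth limits the footprints of KDM8, SIRT5, HDAC8, HDAC9, HDAC10 and HDAC11 most.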

Other observations

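The series table's RNA signal and the deposited gene counts disagreed for some members. In the DMSO libraries the table held a median of 15.4 signal units per CPM of gene counts over its genes. HDAC10 had 132 units per CPM (184.9 units at 1.40 CPM, the 99.1th percentile), and HDAC8 had 1.59 (60.6 units at 38.1 CPM, the 0.353th percentile). The cause was not tested.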
